A study of Mus musculus with 3 samples.

Results

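The plasminogen activators and serpin inhibitors examined here were 9 genes of the 39304 rows in the table: the activators Plat and Plau, the urokinase receptor Plaur, the substrate Plg, and the serpins Serpine2, Serping1, Serpinf1, Serpinb6a and Serpinb9. They were listed by name, and the list was chosen by level: the FPKM of Serpine2 and Plat in these same libraries is among the highest of the marker genes, so levels are given as a description, with no test. All 9 identifiers were found in the table, and 6 of them reached 1 FPKM (fragments per kilobase of gene, per 1000000 reads of the library) in every aliquot. Of all rows 21.7% did so, and 28162 of the 39304 rows were listed at 0 in every aliquot.

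The source was the kidney of 1 wild-type C57BL/6 male of 8 weeks, whose glomeruli, the tufts of capillaries that filter blood, were taken apart. Cells were captured singly in a Fluidigm C1 microfluidic system, and qPCR of marker genes named each of them. The cDNA of 15 mesangial cells, the contractile cells between the capillary loops, was combined with that of 15 endothelial cells, which line those loops, and the mixture was split into 3 aliquots for sequencing. The aliquots form 1 group, so every SD (n = 3) covers library construction and sequencing of the same cDNA, and no value has a check across mice.

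Plasminogen is a zymogen made mainly by the liver, and the tissue-type and urokinase-type activators cut it into plasmin, which digests fibrin and parts of the extracellular matrix. Serpins are a family of protease inhibitors that trap their target by offering a reactive loop as a false substrate. In the glomerulus this system is known for clearing fibrin from the capillaries and for matrix turnover in the mesangium.

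Library totals implied by the deposited values were between 9141422 and 10976563 reads. The markers of both pooled cell types were checked first. All 6 mesangial markers were at or above 1 FPKM in every aliquot, as were 6 of 8 endothelial markers, whereas Cldn5 had 0 throughout and Nos3 had a mean of 0.0093 FPKM. All 5 podocyte markers were also above the limit, with a summed level of 272 to 288 FPKM over the aliquots, against 6708 to 7170 FPKM for the mesangial and 2146 to 2201 FPKM for the endothelial list. Of the smooth muscle markers 2 of 3 were above it. The 3 proximal tubule, 4 macrophage and 3 hepatocyte markers and the collecting duct gene Aqp2 were all listed at 0. What part podocyte or smooth muscle transcripts have in the levels below was not tested.

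Regions before a RefSeq transcription start are shown for the most abundant of the genes, for the urokinase receptor and for the intracellular serpin Serpinb6a. Their base composition can so be read beside the levels. RefSeq promoter sequences on GRCm38.p6 matched 5 of the 9 genes, in 6 windows. Each sequence below is the 250 bases before the RefSeq start, 5′ to 3′ on the gene's own strand, and capitals mark the GC box letters GGGCGG or, on the other strand, CCGCCC.
Serpine2, chr1:79858666-79858915, minus strand: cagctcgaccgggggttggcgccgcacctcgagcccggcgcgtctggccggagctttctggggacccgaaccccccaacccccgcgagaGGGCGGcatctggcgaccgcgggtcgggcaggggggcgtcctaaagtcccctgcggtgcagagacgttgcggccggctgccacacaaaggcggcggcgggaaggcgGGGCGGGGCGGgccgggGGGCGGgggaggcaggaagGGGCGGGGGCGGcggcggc
Plaur, chr7:24462233-24462482, plus strand: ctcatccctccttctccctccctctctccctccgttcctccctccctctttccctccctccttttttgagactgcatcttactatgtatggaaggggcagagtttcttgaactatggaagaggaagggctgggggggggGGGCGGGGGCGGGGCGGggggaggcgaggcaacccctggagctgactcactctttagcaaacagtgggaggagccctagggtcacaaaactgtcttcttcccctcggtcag
Serpinb6a, chr13:34002795-34003044, minus strand: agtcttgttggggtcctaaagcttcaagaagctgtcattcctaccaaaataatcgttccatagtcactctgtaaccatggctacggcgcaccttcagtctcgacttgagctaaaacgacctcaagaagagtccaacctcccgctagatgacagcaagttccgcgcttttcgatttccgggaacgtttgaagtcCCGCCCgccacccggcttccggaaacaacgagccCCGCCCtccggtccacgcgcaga
The Serpine2 window held 6 GC box matches, counted with overlap, and 78.8% G and C. It lies inside the annotated gene, which extends to 79861180 on the minus strand. The window thus precedes the RefSeq start and not the outermost annotated one. The Plaur window held 3 matches and 59.6% G and C, and the Serpinb6a window 2 matches and 54.4%. The window of another Serpinb6a start, at 33936084 to 33936333 on chromosome 13, held 0 matches, as did the windows of Serpinf1 and Serpinb9. Of 32851 windows of the same length 32.7% held the GC box, and the median was 52.4% G and C. The TATA box letters TATAAA (or TTTATA), present in 12.4% of windows, were in none of the 6. These matches describe letters only.

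**Figure D1:**
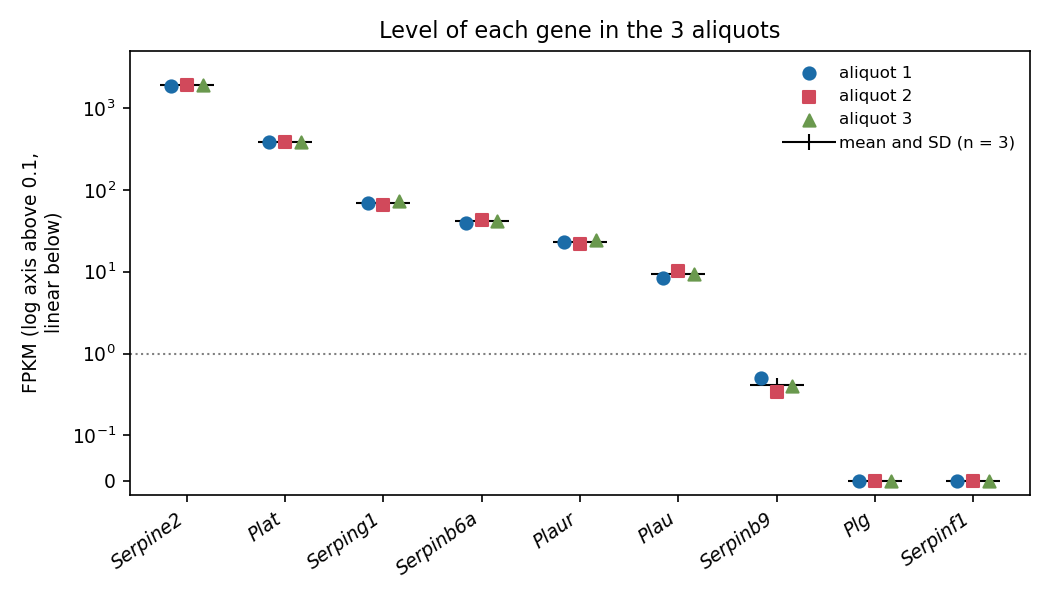
Level of each of the 9 genes in FPKM, on an axis that is logarithmic above 0.1 and linear below, with a marker for each aliquot, a bar for the mean and its SD (n = 3), and a dotted line at 1 FPKM. Serpine2 is highest with 1895 FPKM, and Plg and Serpinf1 are listed at 0, and no neighbouring pair above 0 overlaps.

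Of the activators, Plat was far above Plau. Plat (ENSMUSG00000031538, chromosome 8, 22757727 to 22782844, plus strand, GRCm38) encodes the tissue-type activator, an endothelial product that fibrin stimulates. It had 383, 385 and 384 FPKM in aliquots 1, 2 and 3, a mean of 384 ± 0.654 FPKM, at rank 217 of 11142 genes above 0. The 3 values were almost the same. By level it stood between mt-Nd6 (385 ± 23.5 FPKM) and Ddx5 (384 ± 3.83 FPKM), and the ranges of all 3 genes overlapped. Plau (ENSMUSG00000021822, chromosome 14, 20836660 to 20843385, plus strand), the urokinase-type activator, had 8.31, 10.3 and 9.41 FPKM, lowest in aliquot 1 and highest in aliquot 2. The FPKM of Plat was 41.4 ± 4.45 times that of Plau within an aliquot, but 25.7 times with both lengths set to the longest annotated transcript and 16.8 times with the union of exons. Mesangial and endothelial cDNA were mixed, so which cell type made a transcript, and in how many of the pooled cells, cannot be told.

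The receptor stood above its ligand and the substrate was listed at 0. Plaur (ENSMUSG00000046223, chromosome 7, 24462484 to 24475968, plus strand) encodes the membrane-anchored receptor that holds urokinase at the cell surface. It had 23.3, 22.1 and 24.1 FPKM, a mean of 23.1 ± 1.02 FPKM, and its lowest value lay above the highest of Plau. Within an aliquot the FPKM of Plaur was 2.50 ± 0.335 times that of Plau. This ratio was 1.72 with the longest transcripts and 1.33 with the union of exons. Plg (ENSMUSG00000059481, chromosome 17, 12378608 to 12419385, plus strand), the gene of plasminogen itself, was listed at 0 in each aliquot, as were the hepatocyte genes Alb, Apoa1 and Ttr. A count of 3 reads was taken as a rough upper bound where 0 were counted. It corresponds to 0.0982 reads per 1000000 over the 3 aliquots together, for counting error only. A listed 0 may also be a failed estimate, so it is not given here as absence.

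Among the inhibitors, Serpine2 was the highest of the 9 genes. Serpine2 (ENSMUSG00000026249, chromosome 1, 79794197 to 79861180, minus strand) encodes protease nexin-1, a secreted inhibitor of thrombin, urokinase, tissue-type activator and plasmin. It had 1874, 1920 and 1892 FPKM in aliquots 1, 2 and 3, a mean of 1895 ± 22.9 FPKM at rank 19, and took 0.429% ± 0.0052 of each library total. Aliquot 2 was the highest and aliquot 1 the lowest. Its neighbours in level were Sptbn1 (2023 ± 72.1 FPKM), whose values did not overlap with those of Serpine2, and Ptges3 (1827 ± 52.7 FPKM), whose highest aliquot, 1876 FPKM, lay just above the lowest of Serpine2. In the same libraries Plat lay below Serpine2 by a log2 ratio of -2.30 ± 0.015 on the log2(FPKM + 1) scale. The ratio was -2.29, -2.32 and -2.30 in aliquots 1, 2 and 3.

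Serping1 and Serpinf1, the other secreted serpins of the list, differed in that only the first had reads. Serping1 (ENSMUSG00000023224, chromosome 2, 84765387 to 84775444, minus strand) encodes the C1 inhibitor, which blocks the first complement proteases and plasma kallikrein. It had 69.4, 65.7 and 73.3 FPKM, a mean of 69.5 ± 3.78 FPKM at rank 1692, lowest in aliquot 2 and highest in aliquot 3. Serpinf1 (ENSMUSG00000000753, chromosome 11, 75409769 to 75422701, minus strand), which encodes pigment epithelium-derived factor, a serpin without known protease inhibition that restrains vessel growth, was listed at 0 in each aliquot.

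The intracellular serpins of the list lie in a cluster on chromosome 13. Serpinb6a (ENSMUSG00000060147, 33917918 to 34002794, minus strand) belongs to a group of cytosolic inhibitors, and its human counterpart blocks cathepsin G. It had 39.9, 42.8 and 41.4 FPKM, a mean of 41.4 ± 1.47 FPKM at rank 2645. Serpinb9 (ENSMUSG00000045827, 33003250 to 33017957, plus strand) encodes an inhibitor of granzyme B, the protease that killer lymphocytes deliver. It had 0.510, 0.335 and 0.398 FPKM with 16, 12 and 15 reads, below 1 FPKM in every aliquot. The ranges of Serpinb6a and Serpinb9 were far from overlapping.

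The level order of the 7 genes with reads was Serpine2, Plat, Serping1, Serpinb6a, Plaur, Plau and Serpinb9. In each of the 6 neighbouring pairs the lowest value of the higher gene lay above the highest value of the lower gene. With the deposited lengths the narrowest gap was between Serping1 and Serpinb6a, whose ratio within an aliquot was 1.68 ± 0.129. With the longest transcripts this ratio was 3.05, and the narrowest gap was that of Serpinb6a to Plaur, 1.16. A comparison of 3 values with 3 cannot go below 0.1 in an exact two-sided permutation test, so no p is given. Values of different genes depend on the gene length used, and the deposited FPKM of several members rest on lengths far from their longest transcript. The FPKM steps imply 987 bases for Serpinb6a, within 1 base of the mean of its 17 annotated transcripts, while its longest has 2191 bases. The implied length was 2263 bases for Serpine2, 2531 for Plat, 1445 for Serping1, 1396 for Plaur, 2343 for Plau and 3435 for Serpinb9. The mean transcript length of Serpine2, Plat, Plaur and Plau was 1761, 2393, 1132 and 1889.5 bases, so these 4 did not match it. Of genes above 0 with annotated transcripts, 47.4% matched within 1 base.

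**Figure D2:**
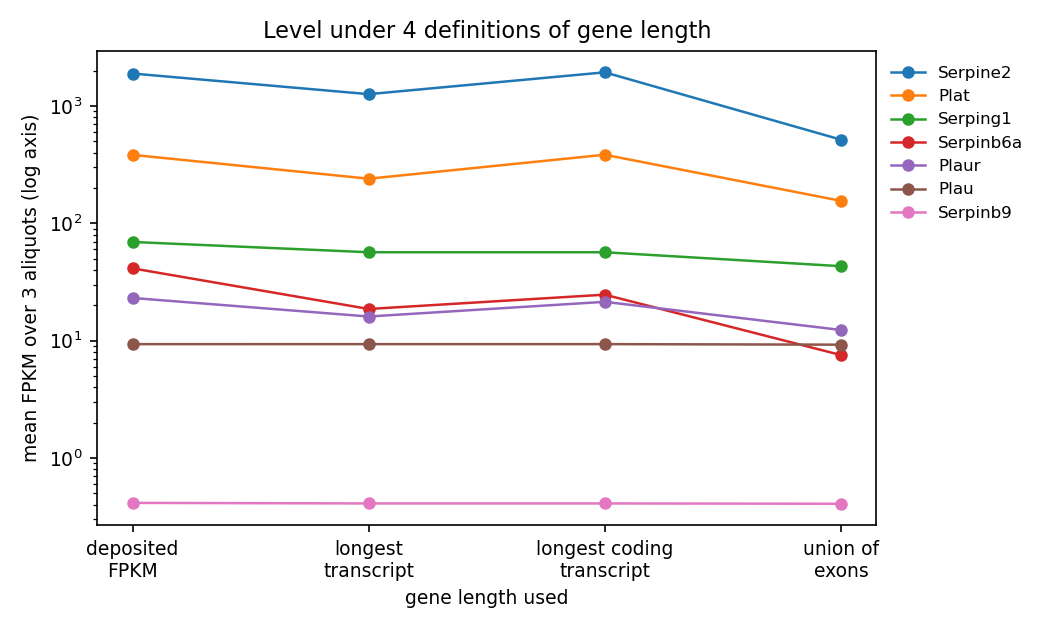
Mean FPKM over the 3 aliquots (log axis) of the 7 genes with reads, with the length implied by the deposited values, the longest transcript, the longest protein-coding transcript or the union of all annotated exons. Serpine2, Plat and Serping1 keep the first 3 places in each, while Serpinb6a has 7.55 FPKM with the union of exons, below Plaur and Plau, and 41.4 FPKM in the deposited values.

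The order of the 7 genes was the same with the longest transcript and with the longest protein-coding transcript as lengths, and in reads per 1000000 without any length. With the union of exons Serpinb6a had 7.55 FPKM, below Plaur with 12.3 FPKM and Plau with 9.25 FPKM. Serpine2 had 1264 FPKM with its longest transcript and 518 FPKM with the union of exons, against 240.4 and 156 FPKM for Plat.

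The exons of Serpinb6a overlap those of other genes. They share 762 bases with Nqo2 (9.89 FPKM), 241 bases with Ripk1 (17.9 FPKM) and 584 bases with the noncoding 1110046J04Rik (listed at 0), all on the opposite strand, and the strand setting of the counting is not given in the sources used here. Of the 50-base windows of its longest protein-coding transcript 20.7% also occurred in transcripts of other genes. Most of these, 290 of 333 windows, were shared with 1110046J04Rik, while 21 were in Serpinb6c, 14 in Gm8436 and 8 in Serpinb6b. Serpinb9 shared 0.380% of its windows, all with Serpinb9b, and Plg shared 13.8%, all with its neighbour Slc22a3. Plat, Plau, Plaur, Serpine2, Serping1 and Serpinf1 shared 0 windows. Of the 11 close paralogs of Serpinb6a and Serpinb9 that were sought, 10 were matched in the table. All 10 were listed at 0, beside 28162 of all 39304 rows.

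The spread between aliquots was then set against counting error. Whole reads were recovered from the FPKM steps, and a chi-square test against the library totals with Benjamini-Hochberg adjustment was run on 9120 genes with at least 30 reads. It called 99 genes, 1.09%, and 0 of the 7 members tested. At an unadjusted p under 0.05 it listed 2 of the 7, beside 11.4% of all genes tested. No other tool was run. The smallest chi-square p was that of Serpine2, with 38772, 45301 and 47005 reads (p = 0.0021, adjusted p = 0.11), and the next that of Serping1, with 917, 990 and 1162 reads (p = 0.042, adjusted p = 0.41). The count of calls over all genes rests on aliquot 1: it was 2 without aliquot 1, 98 without aliquot 2 and 65 without aliquot 3, with 0 members each time.

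**Figure D3:**
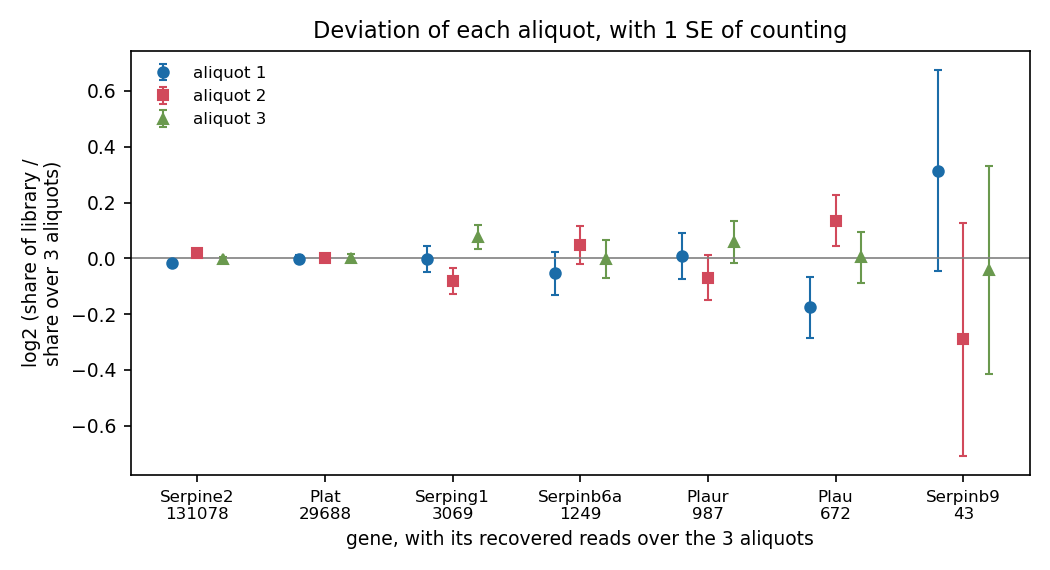
Share of each library taken by a gene, relative to its share over the 3 aliquots, on a log2 axis, for the 7 genes with reads; error bars are 1 standard error of counting and the number under each name is its recovered reads. The deviations stay within 0.02 for Serpine2 and Plat and reach 0.31 for Serpinb9, which had 43 reads.

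The coefficient of variation was 1.21% for Serpine2 with 131078 reads, 5.44% for Serping1 with 3069 reads, 3.56% for Serpinb6a with 1249 reads, 4.42% for Plaur with 987 reads, 10.7% for Plau with 672 reads and 21.3% for Serpinb9 with 43 reads. Counting alone would give about 0.478% for Serpine2, 3.13% for Serping1, 4.90% for Serpinb6a, 5.51% for Plaur, 6.68% for Plau and 26.4% for Serpinb9. Plat varied least, by 0.170% over 29688 reads, where counting alone would give about 1.01%. Of 147 genes with reads within 1.5 times its own, 1.36% varied less. Each such value rests on 3 numbers, and reads of amplified cDNA are not independent molecules.

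Serpine2 also dominated the serpin family as a whole. Of the 68 serpin family genes, 8 were at or above 1 FPKM in every aliquot, beside 21.7% of all rows. Listed at 0 were 57, beside 28162 of all 39304 rows. The family was taken by symbol, so it includes entries named as pseudogenes, such as Serpina3d-ps and Serpinb1-ps1, both listed at 0. Serpine2 made up 73.2%, 73.6% and 73.3% of the summed serpin FPKM in aliquots 1, 2 and 3. Together with Serpini1, neuroserpin, an inhibitor of the tissue-type activator best known from neurons, it made up 89.3% ± 0.073. Serpini1 had 411 ± 0.463 FPKM at rank 188. Its lowest aliquot, 410.1 FPKM, lay above the highest of Plat, 385 FPKM, and its FPKM was 1.07 ± 0.0025 times that of Plat. This ratio was 1.12 with the longest transcripts and 1.13 in reads. With the union of exons it was not computed, so the order of these genes under that length is not known. Serpinb1a, an inhibitor of neutrophil elastase, followed with 142 ± 3.60 FPKM, and Serpinh1, a collagen chaperone that inhibits no protease, with 15.1 ± 0.180 FPKM.

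Serpine3 was also above the limit, with 3.43 ± 0.145 FPKM. By clade, 0 of 29 genes in clade a and 2 of 28 in clade b, Serpinb1a and Serpinb6a, were above it. Both clade totals include the entries named as pseudogenes. The serpins of chromosome 12, 28 genes of which 27 were listed at 0, and those of chromosome 13, 16 genes of which 13 were, form the largest groups.

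Of 6 other regulators of plasminogen activation in the table, 1 was at or above 1 FPKM in every aliquot, beside 21.7% of all rows. The other 5 were listed at 0. These were Serpinb2, an inhibitor of the activators, Serpinf2, which encodes the plasmin inhibitor antiplasmin, Serpina5, Cpb2 and F12, while Klkb1 was not analysed here. In contrast all 4 plasminogen receptor genes were above 1 FPKM in every aliquot. Anxa2, which with S100a10 binds tissue-type activator and plasminogen at the surface of endothelial cells, had 654 ± 22.5 FPKM and S100a10 had 186 ± 3.69 FPKM. The transmembrane receptor Plgrkt had 95.6 ± 0.874 FPKM and the enolase Eno1, a glycolytic enzyme that also binds plasminogen at the cell surface, 61.5 ± 2.66 FPKM.

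**Figure D4:**
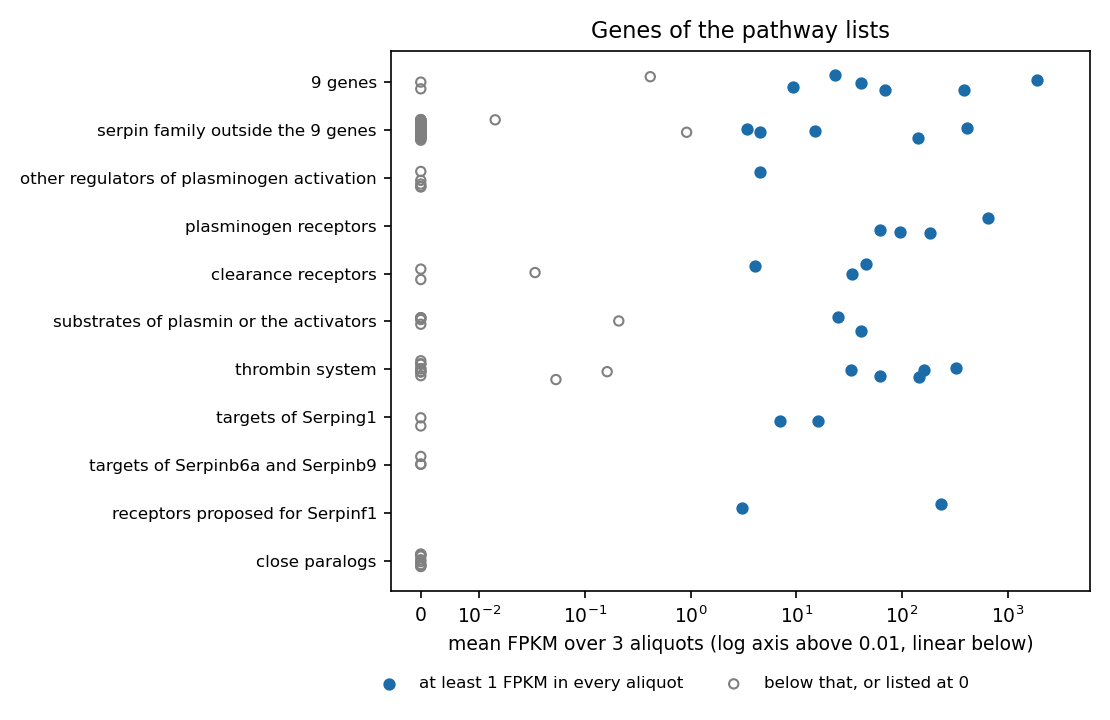
Mean FPKM over the 3 aliquots (log axis above 0.01, linear below) of each gene in the pathway lists, filled where every aliquot had at least 1 FPKM and open otherwise; vertical scatter within a row only separates points. All 4 plasminogen receptor genes are filled, against none of the 10 close paralogs.

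The next list held receptors that clear complexes of activator and inhibitor, together with 2 receptors, Igf2r and Mrc2, that bind the urokinase receptor. Of its 6 genes 3 were above the limit, Lrp1 and these 2, beside 21.7% of all rows. Igf2r, which binds the urokinase receptor and plasminogen, had 45.7 ± 2.30 FPKM, the endocytic receptor Lrp1 had 33.9 ± 1.21 FPKM and the collagen receptor Mrc2, a partner of the urokinase receptor, 4.08 ± 0.413 FPKM. Lrp2 and Lrp8 were listed at 0, and Vldlr had 3 reads in all. Of 8 substrates, 2 were above the limit, both growth factors, again beside 21.7% of all rows. Pdgfd, a growth factor for mesangial cells that urokinase activates, had 40.8 ± 0.863 FPKM, and Pdgfc, which tissue-type activator activates, had 24.6 ± 0.726 FPKM. The fibrinogen genes Fga, Fgb and Fgg, the vitronectin gene Vtn and Hgf were listed at 0, and Tgfb1 had 7 reads in all.

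Serpine2 inhibits thrombin, so the thrombin system was listed too. Of its 16 genes 5 were above 1 FPKM in every aliquot, beside 21.7% of all rows. The thrombin receptor gene F2r led with 322 ± 11.7 FPKM, followed by Pros1, the cofactor of activated protein C, with 161 ± 4.78 FPKM, F8, coagulation factor VIII, with 144 ± 2.92 FPKM and the tissue factor inhibitor Tfpi with 61.4 ± 1.31 FPKM. F2, F3, F5, F10, F13a1, F2rl1, F2rl2, Tfpi2 and Procr were listed at 0. Among the targets of the other serpins, the complement proteases C1s1 and C1ra had 16.1 ± 0.207 and 6.98 ± 0.565 FPKM, and Masp1 and Masp2 were listed at 0. The proteases Ctsg, Gzmb and Casp1, targets of the intracellular serpins, were listed at 0. Both receptors proposed for Serpinf1 were above the limit, with 232 ± 3.86 FPKM for Rpsa, which is also a ribosomal protein gene, and 3.03 ± 0.408 FPKM for Pnpla2, though Serpinf1 itself was listed at 0. Over all pathway lists 19 of 59 genes in the table were above the limit, beside 21.7% of all rows. Of the same 59 genes 36 were listed at 0, beside 28162 of all 39304 rows. The chi-square test of recovered reads called 2 of the 19, beside 1.09% of all genes tested: Anxa2 (adjusted p = 0.018), highest in aliquot 3, and F2r (adjusted p = 0.00024), highest in aliquot 1. Neither chi-square call held without aliquot 1 (adjusted p = 0.38 for Anxa2 and 0.65 for F2r) or without aliquot 3 (adjusted p = 0.81 and 0.089 in the same order).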

How the data were processed

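RNA sequencing libraries of 3 aliquots of 1 cDNA pool were analysed. The table deposited by the authors holds FPKM. Per the submitters' processing notes, TopHat2 2.0.12, HTSeq 0.6.1 and GRCm38 were used; the options, the annotation release and how gene length was defined are not given by the sources used here. Symbols matched 37607 of 39179 Ensembl identifiers. GENCODE M21 (GRCm38) gave coordinates, transcripts and lengths; the authors may have used another release.

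Whole reads were recovered from the steps of low values. Each library total was the commonest solution over genes below 0.5 FPKM when their length was taken as the mean of their transcripts. Each gene's length was the smallest whole number that made its 3 read numbers whole within 0.0001 reads, or its multiple within 1 base of the mean transcript length (374 genes). All 11142 genes above 0 gave whole reads, which sum to 96.7% of each total, although reads of some genes may be too low by a whole factor. Recovery and the chi-square test were run on simulated data in which each gene had its mean transcript length and reads had counting error only. Genes of other lengths and the amplification of cDNA were therefore not covered by the simulation. Analyses used Python 3.11.15, pandas 2.3.3 and SciPy 1.17.1.

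Detection means at least 1 FPKM in every aliquot. All members were named, with up to 4 highest genes of each pathway list, up to 6 other serpins and the neighbours in level of Serpine2 and Plat. Sequences were read from the reference, not from reads. A gene that this rule names is not reported here, though counts include it. The members and lists were chosen with earlier results of these data known. The alternatives were other detection limits, pseudocounts, gene lengths, read minimums and totals, and leaving out each aliquot. No test between groups was possible with 1 group.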

Additional observations from a re-analysis of the deposited data

How the results depend on the processing

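The 6 members above 1 FPKM in every aliquot were also 6 at limits of 0.5 and 5 FPKM, with the limit on the mean and without each aliquot. The count of pathway genes ranged from 16 to 19 and that of serpins from 6 to 9 over the same settings, within 1.5 times of the reported counts of 19 and 8. The log2 ratio of Plat to Serpine2 was -2.30 with pseudocounts of 1 and 0.1 FPKM and with none, and ranged from -2.31 to -2.29 without each aliquot. It was -2.39 with the longest transcripts as lengths and, by lengths added once the data had been seen, -2.33 with the longest protein-coding transcripts and -1.73 with the union of exons. The union of exons also moved 3 of the 7 genes with reads to another place in the order of levels, and other lengths moved none. The number of genes beyond sampling noise was 93 to 102 with other read minimums or totals and 2 to 98 without each aliquot, with 0 members in every setting, and the adjusted p of Serpine2 ranged from 0.060 to 0.66; the cause was not tested. Leaving out an aliquot or taking the median moved no level of the 7 genes by more than its SD. This holds for any 3 values, so it is no check of the levels. No paired analysis was possible because the 3 libraries form 1 group. Depth limits Serpinb9 most, with 43 reads.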
